A study of Mus musculus with 2 samples.

Results

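The hypoxia response and glycolysis genes are 33 genes chosen by symbol from a fixed list, of 32285 genes in the count tables: 19 targets of the hypoxia response and 14 genes of glycolysis and lactate export. All 33 were present, as 34 gene identifiers, because Aldoa has a pair of identifiers whose counts were summed. They were followed in CD45-sorted cells from subcutaneous tumours that MFC cells, a mouse forestomach carcinoma line, formed in wild-type BALB/c mice. The control library came from mice given PBS and the treated library from mice given thonzonium bromide, a quaternary ammonium surfactant, at 50 mg/kg every other day from day 6, with tumours taken on day 10. How many mice entered a library is not stated in the sources used here, and ages are not given. With 1 library per group there is no replicate check and no test. All 95% intervals cover counting error only, and the values describe these 2 libraries rather than the treatment.

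Cells sense oxygen through prolyl hydroxylases (Egln1, Egln3) that mark the transcription factor subunit HIF-1alpha for destruction. When oxygen is short, HIF binds a short promoter element and turns on genes for vessel growth (Vegfa), glucose uptake (Slc2a1), mitophagy (Bnip3), lipid storage (Hilpda) and glycolysis. Neutrophils and activated macrophages are known for relying on glycolysis, and tumours often hold poorly oxygenated regions.

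Filtering kept 6419 control and 5833 treated cells, at medians of 4300 and 7259 unique molecular identifiers (UMIs) per cell. Cells were assigned to classes by marker genes that are no members of the list. The 6 immune classes held, in control and treated, 93 and 170 neutrophils, 858 and 1762 monocytes/macrophages, 1181 and 1106 natural killer (NK) cells, 1342 and 1165 T cells, 223 and 490 B cells and 135 and 156 dendritic cells. The sort marker gene Ptprc was found in 88.2% and 95.4% of kept cells. A further class of 98 and 47 cells carried fibroblast or tumour markers, with Ptprc at 22.5 and 124 CPM. CPM is the number of UMIs of a gene per 1000000 UMIs of its class and library. Of the UMIs of kept cells, haemoglobin made up 8.64% in the control against 1.16% in the treated sample, and 659 and 56 kept cells were gated as erythroid. Before filtering, 14 barcodes occurred in both libraries. A level below is the summed UMIs of a gene in a class and library as CPM. Levels were compared between classes and libraries, not between genes. A member was measured in a class with at least 50 UMIs over both libraries, and called higher or lower in the treated library at a 1.5-fold change whose counting interval excludes 1. Several glycolysis genes, among them Gapdh, Ldha, Pkm and Pgk1, have processed pseudogenes, so their counts may hold reads of near-identical copies.

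The stretches just before the start sites of 5 members that the results below turn on are shown with the core letters of the hypoxia response element in capitals. The core was searched as ACGTG or GCGTG on both strands, so CACGT and CACGC also count, and overlapping matches count separately. Vegfa and Ankrd37 were the members called lower in monocytes/macrophages, and Hilpda, Slc16a3 and Egln3 had high levels in neutrophils. Each sequence is the 250 bases upstream of the most upstream RefSeq start of the gene in GRCm38.p6, written 5′ to 3′ on the gene's strand. Vegfa lies at chr17:46032378-46032627 on the minus strand, Ankrd37 at chr8:45999851-46000100 (minus), Hilpda at chr6:29272238-29272487 (plus), Slc16a3 at chr11:120948817-120949066 (plus) and Egln3 at chr12:54203875-54204124 (minus).
Vegfa: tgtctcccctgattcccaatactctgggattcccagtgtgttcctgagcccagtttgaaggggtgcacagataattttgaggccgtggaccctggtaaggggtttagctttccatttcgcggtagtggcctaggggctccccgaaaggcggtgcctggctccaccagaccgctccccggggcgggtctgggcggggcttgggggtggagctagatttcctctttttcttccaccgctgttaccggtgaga
Ankrd37: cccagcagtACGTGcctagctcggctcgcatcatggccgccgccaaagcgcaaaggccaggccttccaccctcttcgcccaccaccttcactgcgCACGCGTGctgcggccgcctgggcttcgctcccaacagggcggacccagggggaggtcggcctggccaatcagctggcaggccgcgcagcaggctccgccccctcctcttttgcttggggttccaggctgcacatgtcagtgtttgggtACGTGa
Hilpda: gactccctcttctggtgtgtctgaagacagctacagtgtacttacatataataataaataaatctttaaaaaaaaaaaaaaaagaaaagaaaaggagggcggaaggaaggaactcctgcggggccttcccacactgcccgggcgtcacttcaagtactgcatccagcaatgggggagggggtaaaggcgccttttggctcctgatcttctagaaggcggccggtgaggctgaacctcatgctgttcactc
Slc16a3: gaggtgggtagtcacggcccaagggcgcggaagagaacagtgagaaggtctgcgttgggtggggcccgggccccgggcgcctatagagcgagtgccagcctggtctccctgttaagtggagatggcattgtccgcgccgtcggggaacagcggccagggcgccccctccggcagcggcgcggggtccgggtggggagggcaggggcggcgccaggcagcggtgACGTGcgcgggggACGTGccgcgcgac
Egln3: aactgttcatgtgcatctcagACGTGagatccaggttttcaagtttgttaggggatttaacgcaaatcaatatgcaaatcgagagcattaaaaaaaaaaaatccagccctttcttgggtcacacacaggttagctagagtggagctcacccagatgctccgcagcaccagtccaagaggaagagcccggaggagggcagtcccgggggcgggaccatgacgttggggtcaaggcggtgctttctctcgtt

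Ankrd37 held 4 matches in this stretch, beginning 241, 155, 152 and 6 bases before the start. Slc16a3 held 2, at 27 and 14 bases, and Egln3 held 1, at 229 bases. Vegfa and Hilpda held 0 here, while the fullest RefSeq window of another start held 2 for Vegfa and 3 for Hilpda. Over the 300-base windows (250 before to 50 after a start), 32 of 33 members matched the table, Ndrg1 being the exception. The core occurred in 82.8% of 29 hypoxia target windows and 76.2% of 21 glycolysis windows, against 43.8% of all 32851 RefSeq windows. The member windows were rich in G and C, with a median of 64.3% for hypoxia targets and 64.7% for glycolysis genes against 52.7% over all windows, and the core occurred in 68.0% of all windows of 60 to 70% GC. These matches describe letters in a window and do not show binding.

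Hypoxia targets were highest in neutrophils more often than in any other class, and glycolysis genes in monocytes/macrophages. Of 19 hypoxia targets, neutrophils were the highest class for 7 (control) and 11 (treated), against 5 and 1 in monocytes/macrophages. Some of these first places were near ties. Intervals of the first and second class overlapped for Pfkfb3 in control neutrophils and for P4ha1 and Mxi1 in treated neutrophils. They also overlapped for all 5 members highest in control monocytes/macrophages. The shares of all genes highest in each class were not computed. Of 14 glycolysis genes, 7 were highest in monocytes/macrophages and 3 in neutrophils in each library, 6 and 2 of them the same genes in both. Near ties occurred here too. First and second class intervals overlapped in both libraries for Gpi1, highest in monocytes/macrophages, and Pfkl, highest in neutrophils. The same held for Hk2 and Pgam1, whose highest class differed between the libraries. The summed level of the hypoxia targets without Mif, a cytokine gene abundant in every class, was 2456 and 2509 CPM in neutrophils, control then treated. It was 1192 and 917 CPM in monocytes/macrophages, 773 and 633 in dendritic cells, 694 and 624 in T cells, 639 and 551 in NK cells and 387 and 342 in B cells. Of the neutrophil sum, Hilpda made up 947 and 1050 CPM and Slc2a1 335 and 259. Not every target was high in neutrophils. Ndrg1, Egln1 and Pdk1 were lowest there of the 6 classes in control. Higd1a, Egln1, Pdk1 and Ddit4 lay below the highest lymphoid class in both libraries. The glycolysis sum was 6227 and 6268 CPM in monocytes/macrophages, 5174 and 5710 in neutrophils and 1566 and 1538 in B cells, the lowest class. Adm, a vasodilator peptide gene, had 0 UMIs in neutrophils of either library and at most 8 in any other immune class, and Ak4, a mitochondrial adenylate kinase gene, did not exceed 2.80 CPM in any of the 6 classes.

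**Figure D1:**
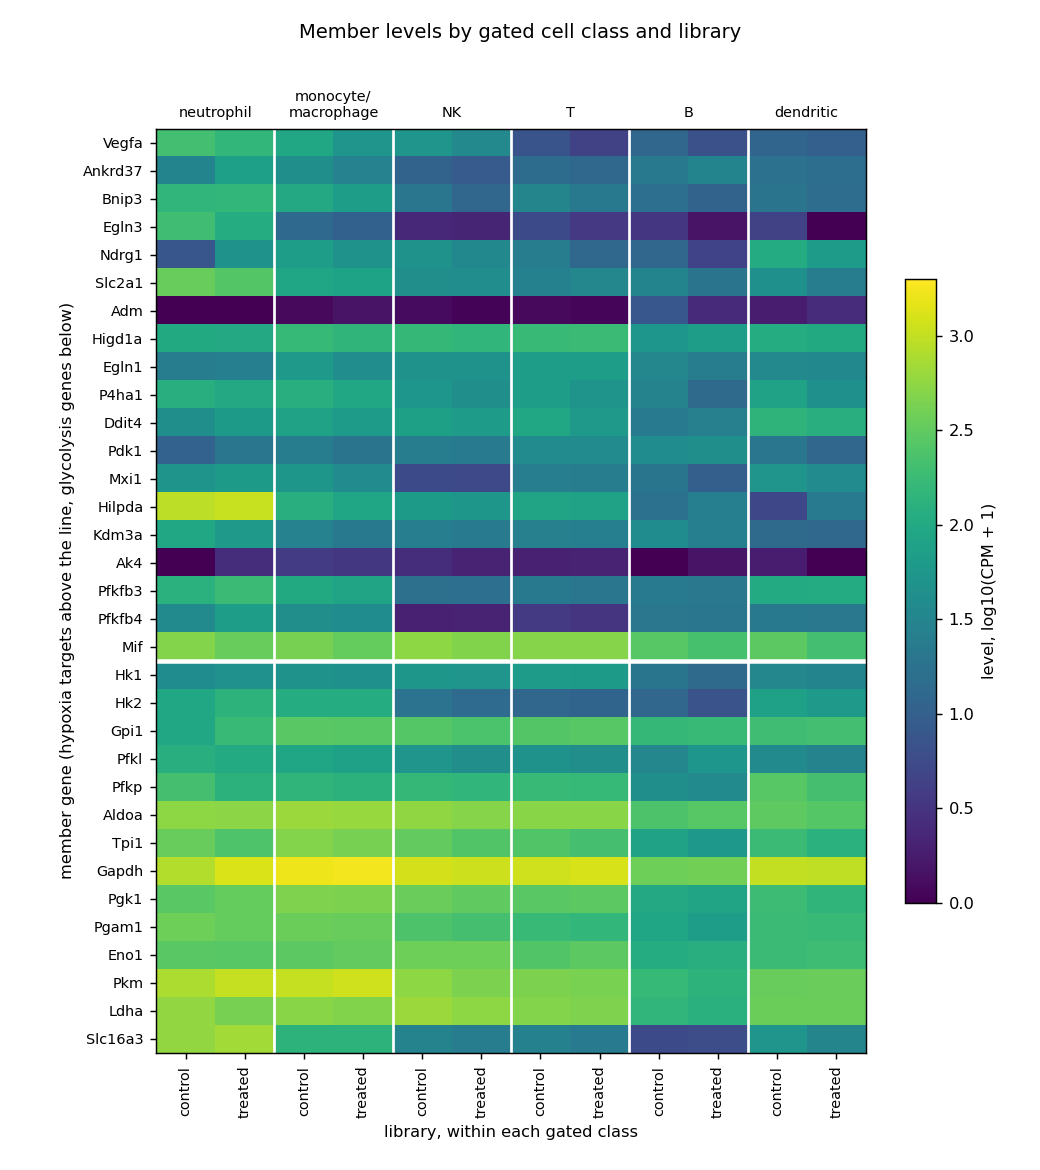
Level of each of the 33 members as log10(CPM + 1), genes in rows and library within each gated class in columns, with hypoxia targets above the white line and glycolysis genes below it. Hilpda, Slc2a1, Vegfa, Egln3 and Slc16a3 are brightest in the neutrophil columns, and Adm and Ak4 are dark throughout.

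In neutrophils 8 members were at least 3 times as high as in each of the NK, T and B classes in both libraries: Vegfa, Bnip3, Egln3, Slc2a1, Hilpda, Pfkfb3, Hk2 and Slc16a3. Among all genes the same 3-fold rule held for 5.58% (control) and 6.99% (treated). Hilpda, which blocks lipid breakdown at lipid droplets, stood at 947 CPM in control neutrophils (interval 841 to 1063) and 1050 in treated (969 to 1136). The next class, monocytes/macrophages, had 116 and 89 CPM, so the neutrophil level was 8.15 and 11.8 times as high. Slc16a3, the lactate exporter MCT4, was at 585 and 689 CPM in neutrophils against 135 and 136 in monocytes/macrophages. Egln3, an oxygen sensor that HIF itself induces, was at 191 and 110 CPM in neutrophils and at no more than 12.4 in any other of the 6 classes. For Hilpda, Slc16a3 and Egln3 the neutrophil intervals lay above those of every other immune class in both libraries. Vegfa, Bnip3, Slc2a1 and Kdm3a likewise had neutrophil intervals above that of the second-highest class in both libraries. The share of all genes with such a separation was not computed. Slc2a1, the glucose importer GLUT1, was at 335 and 259 CPM in neutrophils and 89.1 and 80.7 in monocytes/macrophages. In monocytes/macrophages the 3-fold rule held in both libraries for Bnip3, Pfkfb3, Hk2 and Slc16a3, against 7.38% and 9% of all genes. Hk2, the inducible hexokinase, was as high there as in neutrophils within counting error, at 110 and 109 CPM against 92.0 and 136.

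**Figure D2:**
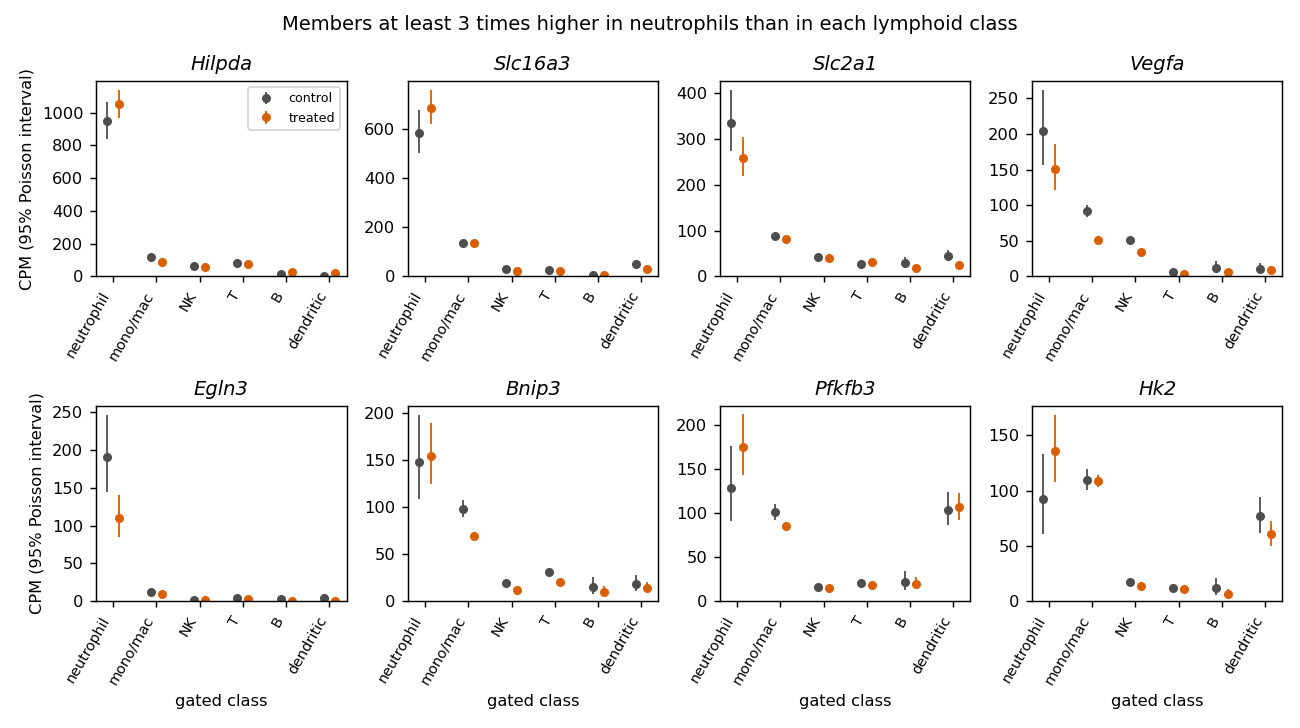
Level in CPM with the 95% Poisson interval of the 8 members at least 3 times as high in neutrophils as in each lymphoid class, by gated class, control in grey and treated in orange. Hilpda, Slc16a3, Slc2a1, Vegfa and Egln3 stand highest in neutrophils in both libraries, while Hk2 and Pfkfb3 are also high in monocytes/macrophages and dendritic cells.

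The neutrophil level was spread unevenly over cells. With each cell thinned to 1000 UMIs, 29.3% of 82 control and 27.2% of 162 treated neutrophils had a Hilpda UMI (34.4% and 37.1% unthinned). The same share in B cells was 1.82% and 2.25% (5.83% and 7.96% unthinned), at median depths of 3858 and 3682 UMIs against 3011 and 3391 in neutrophils. In thinned control neutrophils 30.5% of cells had no UMI of the 18 hypoxia targets other than Mif and 6.1% had 8 or more, and in treated neutrophils these shares were 34.0% and 8.64%. Thinning left out 11 control and 8 treated neutrophils.

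In monocytes/macrophages all 18 measured hypoxia targets were lower in the treated library, and the glycolysis genes stayed near the level of the control. The median log2 ratio was -0.38 for the hypoxia targets, -0.04 for the 14 glycolysis genes and -0.02 over all 9833 measured genes, of which 54.0% were below 1. With each cell scaled alike, 17 of the 18 targets were below 1 and the median was -0.20. Few members passed the call: 2 hypoxia targets and 0 glycolysis genes were called lower and 0 of either list higher, where 5.44% of all genes were called lower and 1.68% higher.

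Among the secreted signals, Vegfa, the main vessel growth factor, had 458 UMIs or 91.7 CPM in control monocytes/macrophages. It had 797 UMIs or 50.9 CPM in treated ones, a ratio of 0.555 (interval 0.494 to 0.624). Over the alternative settings this ratio ranged from 0.530 to 0.761, and the highest value lay outside that interval and short of a 1.5-fold change. The share of cells with a Vegfa UMI differed little. After thinning it was 5.06% in control (3.59 to 6.91) and 4.36% in treated (3.43 to 5.45), and unthinned 15.3% and 14.5%. Mif was at 425 and 329 CPM. Of the oxygen sensors and feedback genes, Ankrd37, an ankyrin repeat protein gene, was at 43.1 and 27.8 CPM, a ratio of 0.646 (0.547 to 0.764). Egln1, the main HIF prolyl hydroxylase, was at 57.5 and 40.5 CPM, below the call. Of the mitochondrial genes, Bnip3 was at 98.1 and 69.0 CPM and Higd1a, which supports the respiratory chain in low oxygen, at 162 and 142. Of the growth and stress genes, Ndrg1 was at 67.7 and 46.7 CPM, Ddit4, an inhibitor of mTORC1, at 79.3 and 65.1, and Hilpda at 116 and 89. For each of these 9 members the CPM intervals of the 2 libraries did not overlap. Such intervals narrow as counts rise, and the share of all measured genes without overlap was not computed. The glucose and lactate transporters Slc2a1 and Slc16a3 had ratios of 0.905 and 1.00.

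The glycolytic enzymes of the same cells lay closer together. Gapdh was at 1651 and 1723 CPM, Pkm, the pyruvate kinase, at 1024 and 1159, and Eno1 at 297 and 323. Tpi1 had the lowest ratio of the list, 0.851, at 489 and 416 CPM. All 7 preparatory enzymes had ratios below 1 and 3 of 6 payoff enzymes had ratios above 1. The summed hypoxia targets without Mif came to 19.1 UMIs per 100 glycolysis UMIs in control and 14.6 in treated monocytes/macrophages.

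**Figure D3:**
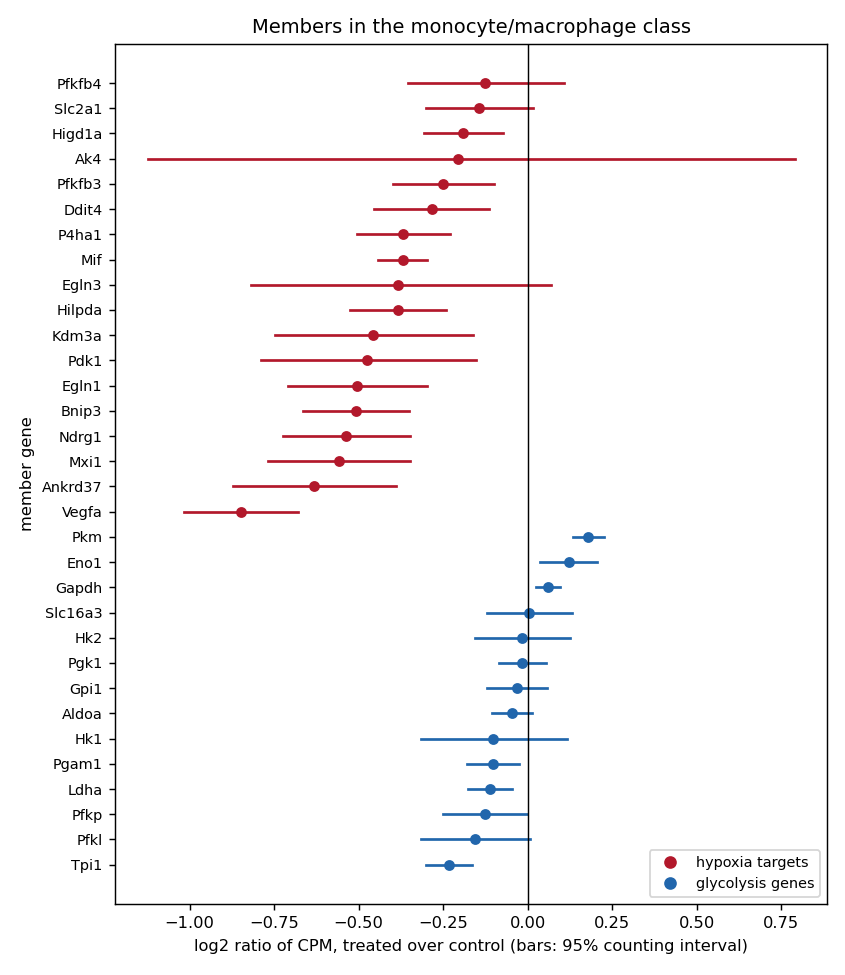
Log2 ratio of CPM, treated over control, of the 32 members measured in monocytes/macrophages, with 95% counting intervals, hypoxia targets in red and glycolysis genes in blue. All 18 hypoxia targets lie left of 0, Vegfa furthest, while the glycolysis genes lie on both sides of it.

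Most hypoxia targets were lower in each monocyte/macrophage subset, 14 of 16 in complement-high macrophages, 16 of 17 in classical and 10 of 13 in nonclassical monocytes, and the members called in each are given here. In complement-high macrophages (215 control and 276 treated cells) the hypoxia median was -0.40 and Vegfa (166 and 65.2 CPM, ratio 0.393), Bnip3 (145 and 78.9), Ndrg1 (94.3 and 52.3) and Egln1 (80.3 and 41.7) were called lower, where 3% of all genes were, and no member was called higher, where 4.83% of all genes were. With each cell scaled alike the Vegfa ratio was 0.707, and with cells thinned to 1000 UMIs it was 0.602, while the Egln1 ratio went from 0.519 to 0.289. In classical monocytes (361 and 957 cells) the median was -0.33 and Ankrd37, Ddit4 (86.0 and 46.4 CPM), Mxi1, a MYC antagonist, and Hilpda (130 and 84.6) were called lower, against 3.83% of all genes, and none higher, against 2.06%. Vegfa was not called there, at 60.3 and 51.8 CPM. With cells thinned to 1000 UMIs, 9 of 17 hypoxia targets of classical monocytes were below 1 with a median of -0.14, and the Ankrd37 ratio was 1.39. In nonclassical monocytes (117 and 260 cells) the median was -0.34, Slc2a1 and Mxi1 were called lower, and Hilpda was called higher from 5 and 78 UMIs (9.11 and 43.4 CPM), where 4.85% and 4.89% of all genes were called lower and higher. A stricter gate took that Hilpda ratio from 4.77 to 1.74, and thinning took those of Slc2a1 and Mxi1 from 0.448 and 0.501 to 0.775 and 0.885. The glycolysis medians of the 3 subsets were -0.10, -0.04 and -0.04. Whether the subsets differ from each other was not tested.

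Other marker lists moved beside these values. Dissociation stress genes such as Fos and Jun summed to 6946 CPM in control and 6114 in treated monocytes/macrophages and to 6394 and 4509 in complement-high macrophages. Neutrophil markers summed to 534 and 878 CPM in monocytes/macrophages, with 8 of 12 higher in the treated library, against 102531 and 124552 in neutrophils. Haemoglobin summed to 604 and 153 CPM. Muscle markers summed to 3.90 and 384 CPM in complement-high macrophages. The part of these in the ratios was not tested. With the same subset weights in both libraries the hypoxia median of the whole class was below 0, as it was in 14 of 14 alternative settings.

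In neutrophils the members did not share a direction. Of 13 measured hypoxia targets 7 were lower in the treated library, with a median log2 ratio of -0.03, and of 13 glycolysis genes 7 were lower, also with a median of -0.03, against 0.04 over 1784 measured genes. Egln3 (58 and 65 UMIs, 191 and 110 CPM, ratio 0.577) and the phosphofructokinase gene Pfkp (214 and 132 CPM) were called lower, where 11.5% of all genes were. Ankrd37 (9 and 43 UMIs, 29.6 and 72.8 CPM, ratio 2.46), Gapdh (832 and 1299 CPM) and Gpi1, glucose-6-phosphate isomerase (92.0 and 166 CPM), were called higher, where 7.85% of all genes were. The sign of the hypoxia median changed with the setting, from -0.37 to 0.20, and was below 0 in 7 of 13. Granzyme genes of activated NK cells summed to 533 CPM in control and 27.1 in treated neutrophils, and T cell markers to 243 and 50.8. Their part in the ratios was not tested.

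In NK cells both lists were slightly lower in the treated library. The hypoxia median was -0.17, with 14 of 15 measured targets below 1, and the glycolysis median was -0.20, with 14 of 14 below 1, against -0.02 over all genes. Both medians were below 0 in 14 of 14 alternative settings, which included the same subset weights in both libraries. Bnip3 alone was called lower, at 18.7 and 11.3 CPM (ratio 0.604), where 2.22% of all genes were, and no member higher, where 1.51% were. Mature NK cells (212 and 325 cells) had lower medians, -0.55 and -0.48. There 5 of 13 hypoxia targets (Vegfa, Bnip3, P4ha1, Ddit4 and Hilpda) and 5 of 13 glycolysis genes (Aldoa, Tpi1, Pgk1, Pkm and Slc16a3) were called lower, where 2.27% of all genes were, and none was called higher, where 2.78% were. Pgk1, which makes the first ATP of glycolysis, was at 290 and 174 CPM (interval of the ratio 0.526 to 0.683), and Aldoa at 525 and 349. Hilpda was at 60.7 and 21.2 CPM, a ratio of 0.350 that was 0.761 under a stricter gate, where Bnip3 went from 0.392 to 0.66. The Pgk1 ratio was 0.6, and 0.304 with cells thinned to 1000 UMIs, where Ddit4 and Tpi1 were at 0.321 and 0.373.

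Activated NK cells (248 control and 164 treated cells) had medians of -0.06 and -0.10 and cycling NK cells (202 and 132) of -0.18 and -0.02. In activated NK cells Vegfa (84.3 and 56.1 CPM) and Hk2 (25.9 and 16.2) were called lower, where 2.12% of all genes were, none was called higher, where 2.04% were, and Pgk1 was at 393 and 393 CPM. In cycling NK cells no member was called, where 3.45% of all genes were called lower and 1.18% higher. Granzymes C to F, which mark the activated subset, summed to 3483 and 1835 CPM in mature NK cells and to 17354 and 17080 in activated NK cells. Stress genes were lower in all 3 subsets, at 1826 and 1136 CPM in mature, 1379 and 904 in activated and 1333 and 677 in cycling NK cells. Their part in the ratios was not tested, and the difference between subsets was not tested.

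In T cells 4 of 16 hypoxia targets were called lower, where 4.18% of all genes were: Vegfa (54 and 31 UMIs), Egln3 (39 and 23 UMIs), Ndrg1 (23.2 and 12.2 CPM) and Ddit4 (91.6 and 59.1 CPM). The hypoxia median was -0.13 and the glycolysis median -0.06, beside -0.07 over all genes, and no glycolysis gene was called. No member was called higher, where 1.47% of all genes were. The Egln3 ratio of 0.568 was 0.927 with each cell scaled alike and 0.371 with cells thinned, and the Vegfa ratio of 0.553 was 0.207 in Leiden clusters. Regulatory T cell markers summed to 1552 and 938 CPM in the T class, dissociation stress genes to 2314 and 1388 (7 of 7 lower) and granzymes C to F to 1159 and 490 (4 of 4 lower). Their part in the ratios was not tested.

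In dendritic cells Ndrg1 (108 and 64.8 CPM), Slc2a1 (44.0 and 24.0), P4ha1, a collagen prolyl hydroxylase gene (77.9 and 44.1), and Slc16a3 (51.7 and 31.1) were called lower, where 5.13% of all genes were. The medians were -0.33 and -0.15. The Slc2a1 ratio was 0.544, but 0.89 with earlier marker lists of the gate, 0.272 in Leiden clusters and 0.166 with cells thinned. Thinning also took Ndrg1 and P4ha1 from 0.603 and 0.566 to 0.37 and 0.303. In B cells P4ha1 (25 UMIs in each library, 28.5 and 12.7 CPM) was called lower and Pfkl, liver-type phosphofructokinase (33.1 and 53.7 CPM), higher, where 8.02% and 2.43% of all genes were. The B cell hypoxia median was -0.09, with 7 of 12 measured targets below 1, and the glycolysis median was -0.22, beside -0.09 over all genes. No other member of either class was called higher or lower, where 2.27% of all genes were called higher in dendritic cells. In B cells muscle markers summed to 7.98 and 340 CPM (8 of 8 higher), stress genes to 3859 and 2553 (7 of 7 lower), T cell markers to 129 and 46.1 and granzymes C to F to 246 and 43.6. In dendritic cells stress genes summed to 4376 and 3271 CPM and granzymes to 270 and 74.7. Their part in the ratios was not tested. Over the 6 classes, 67 of 84 measured pairs of a hypoxia target and a class were below 1, with 12 called lower and 1 higher. These shares were 79.8%, 14.3% and 1.19%, against 56.0%, 4.94% and 2.02% of the 43961 such pairs over all measured genes. Of 80 such pairs of glycolysis genes 57 (71.2%) were below 1, with 2 (2.5%) called lower and 3 (3.75%) higher, so the calls lay near the all-gene shares. Pairs of 1 gene in several classes are not independent. P4ha1 (6 classes), Kdm3a (5), Vegfa and Ndrg1 (4 each) and Egln3 (3) were below 1 in every class that measured them. So were Pfkp, Tpi1, Pgam1 and Ldha (6 each) and Hk1 (4). The share of all genes below 1 in every such class was not computed. Ndrg1 was not measured in neutrophils, where it stood at 6.57 CPM in control and 47.4 in treated. Ak4 was measured only in monocytes/macrophages.

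The lowest hypoxia median of any class lay in the small class with fibroblast or tumour markers, cells that a CD45 sort should largely remove. Its hypoxia median was -0.73 and its glycolysis median -0.45. Of 17 measured hypoxia targets 11 were called lower, where 4.75% of all genes were, and 0 higher, where 5.12% were. Among those lower were Ankrd37 (87.9 and 23.3 CPM), Vegfa (63.8 and 27.4), Ddit4 (154 and 57.4) and Bnip3 (169 and 76.1). Of the glycolysis genes, Hk2, Pgk1 (881 and 543 CPM) and Slc16a3 (253 and 144) were called lower. These values rest on 98 and 47 cells, and with cells thinned to 1000 UMIs the median was -0.44 and the ratios of Egln3, Slc2a1 and P4ha1 were 2.02, 10.1 and 1.01. Ptprc stood at 22.5 CPM in control and 124 in treated cells of this class, and its part in the ratios was not tested.

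**Figure D4:**
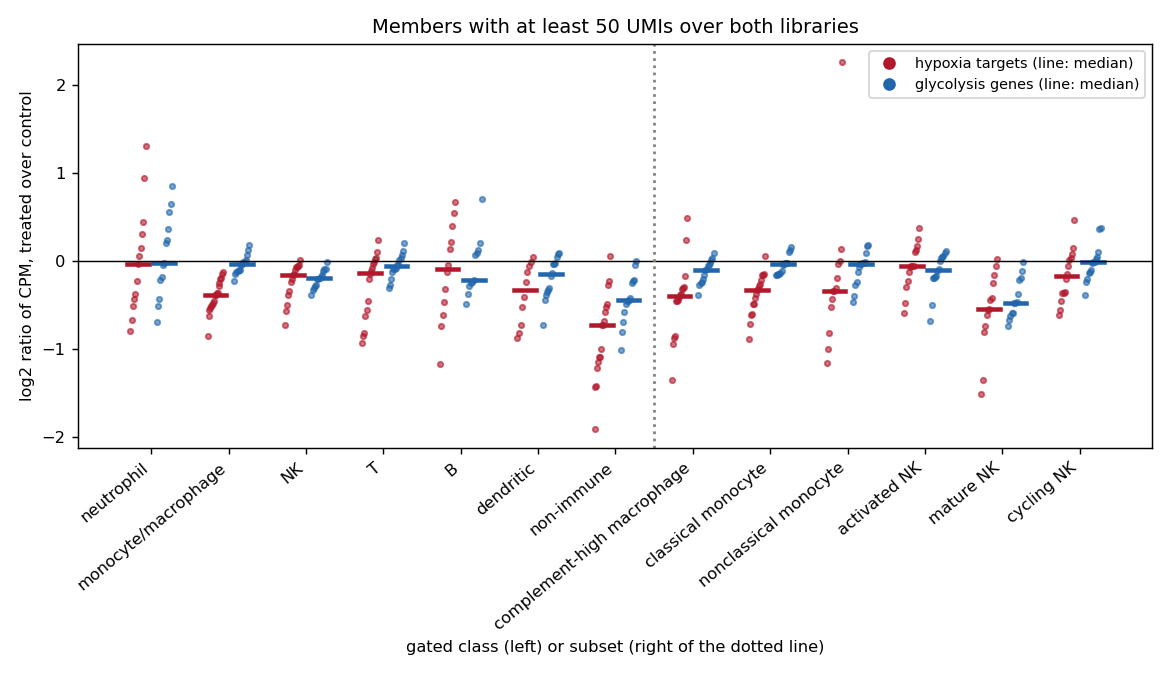
Log2 ratio of CPM, treated over control, of each measured member by class and subset, hypoxia targets in red and glycolysis genes in blue, with bars at the medians. Hypoxia medians lie below glycolysis medians in monocytes/macrophages and their subsets, and both lie below 0 in NK cells and mature NK cells.

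The share of cells with hypoxia target UMIs was compared after thinning each cell to 1000 UMIs, which evens out depth. Cells with at least 3 UMIs of the 18 targets other than Mif made up 36.6% of control neutrophils (Clopper-Pearson interval 26.2 to 48.0) and 28.4% of treated (21.6 to 36.0). In monocytes/macrophages the shares were 13.3% (10.9 to 15.9) and 9.13% (7.79 to 10.6), and unthinned they were 54.8% and 71.1%, in the opposite order. In complement-high macrophages they were 21.1% and 10.6%, and in mature NK cells 5.29% (11 of 208 cells) and 0.309% (1 of 324). B cells, at 0.909% and 0.410%, had the lowest shares of the 6 classes. The neutrophil intervals overlapped, and those of the monocytes/macrophages did not. Cells under 1000 UMIs were left out: 127 control and 86 treated monocytes/macrophages, and 44 and 13 complement-high macrophages. The control library thus lost a larger share of these cells, and the part of this in the values was not tested.

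**Figure D5:**
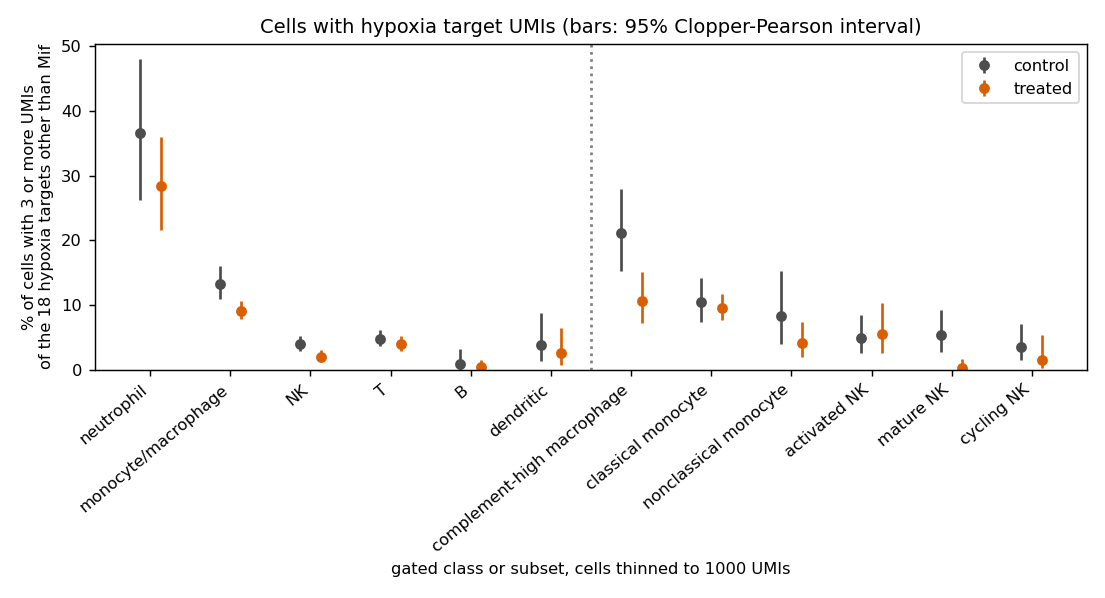
Percentage of cells with 3 or more UMIs of the 18 hypoxia targets other than Mif after thinning to 1000 UMIs per cell, by class and subset, with 95% Clopper-Pearson intervals, control in grey and treated in orange. Neutrophils stand highest, and complement-high macrophages and mature NK cells show the control above the treated library without overlap of the intervals.

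Genes of the pathway outside the 33 members followed to different extents in different classes. Hif1a, the oxygen-regulated subunit itself, was at 245 and 254 CPM in monocytes/macrophages, 184 and 242 in neutrophils, 207 and 174 in NK cells and 336 and 262 in T cells, and no HIF regulator was called in any of the 6 classes. In the subsets 3 were called lower, and each is named after its value was seen. Hif1a was at 192 and 126 CPM in mature NK cells (ratio 0.655, interval 0.559 to 0.766), Arnt, its dimer partner, at 60.1 and 30.6 in nonclassical monocytes, and Vhl, part of the ligase that marks it for degradation, at 20.4 and 7.09 in cycling NK cells. Of all genes, 2.27%, 4.85% and 3.45% were called lower in these 3 subsets, in that order. Of 18 measured further hypoxia targets in monocytes/macrophages 15 were below 1, with a median of -0.17. Zfp395 (11.4 and 4.92 CPM) and the transferrin receptor gene Tfrc (11.8 and 7.35) were called lower, where 5.44% of all genes were. Nos2, inducible nitric oxide synthase (12 and 19.9), was called higher, where 1.68% were. Of 19 further glucose and pyruvate genes there 12 were above 1. The myeloid hexokinase Hk3 (68.1 and 106 CPM) and Ldhb (3.20 and 6.01) were called higher, where 1.68% of all genes were. Of the further hypoxia targets in B cells, 9 of 10 were below 1 (median -0.55), with 4 called lower, where 8.02% of all genes were. In the fibroblast or tumour marker class 21 of 22 were below 1 (median -0.66), with 12 called lower, where 4.75% of all genes were. Their medians were -0.11 in neutrophils, -0.11 in NK cells, -0.15 in T cells and -0.13 in dendritic cells. Calls went both ways there, with 1 higher and 0 lower of 16 in NK cells and 0 higher and 1 lower of 7 in neutrophils. In T cells (17 measured) and dendritic cells (9) 1 was higher and 1 lower, and the highest dendritic log2 ratio was 2.11. In NK cells, neutrophils, T cells and dendritic cells 1.51%, 7.85%, 1.47% and 2.27% of all genes were called higher. The shares called lower were 2.22%, 11.5%, 4.18% and 5.13%. Arg1, arginase, was at 188 and 102 CPM in complement-high macrophages and at 48.6 and 78.7 in classical monocytes.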

How the data were processed

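Per the file headers, the deposited matrices hold raw UMI counts per gene and barcode, written by Cell Ranger 6.1.2. Seurat (version 3.0), R (version 3.5.3) and mm10 appear in the submitters' processing notes with no stated role. How many mice entered a library is not given in the sources used here. Barcodes under 200 detected genes or over 20% mitochondrial UMIs were dropped. No doublets were removed.

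Cells were assigned by marker gates: the mean log-scaled level of 10 marker lists, divided by its 0.995 quantile, had to reach 0.3 with the second list at no more than 0.6 of it. Other cells stayed unassigned (1314 control and 471 treated) or mixed (441 and 387). Of the assigned cells of the 6 classes, 395 of 3832 control and 310 of 4849 treated lay near a gate boundary. UMIs were summed per class and library and expressed as CPM with exact Poisson intervals, and ratios have exact conditional binomial intervals. Scripts ran in Python 3.11.15 with numpy 2.4.6, scipy 1.17.1 and leidenalg 0.10.2 and were tested on simulated data.

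The members and gene lists were chosen with earlier results of these data known. Members were named by 3 rules: a call in a class, high abundance in a role group, or a level at least 3 times that of each lymphoid class. Further choices were made after values had been seen. The B cell and dendritic marker lists of the gate were revised after member levels under the earlier lists had been printed. The earlier lists are kept as an alternative. The subsets' gates were also set on these data. The promoter stretches shown were changed more than once after their motif counts were known, and were last set by the expression results alone. A minimum of 20 thinned UMIs was tried after the thinned ratios had been seen, and both versions are reported.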

Additional observations from a re-analysis of the deposited data

Results flagged for a closer look

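Ankrd37 differed in direction between classes. Its treated to control ratio was 2.46 (interval 1.18 to 5.74) in neutrophils, from 9 and 43 UMIs, and 0.646 (0.547 to 0.764) in monocytes/macrophages, from 215 and 435 UMIs. It was drawn out because the 2 intervals lie on opposite sides of 1, and the difference itself was not tested, since each group is 1 library. Over the alternative settings the neutrophil ratio ranged from 1.86 to 3.16 and the monocyte/macrophage ratio from 0.583 to 0.781.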

How the results depend on the processing

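Medians were compared with the interval that the order of the members' own ratios gives, which is wide for short lists, so a median within it may still have moved visibly. Of the comparisons of a median or a share with an alternative, 334 stayed within it and 8 did not. With each cell scaled alike, the hypoxia median was -0.20 in monocytes/macrophages and -0.27 in complement-high macrophages, whose glycolysis median was 0.028. With cells thinned to 1000 UMIs as planned, the hypoxia median was -0.44 in the fibroblast or tumour marker class and -0.14 in classical monocytes. Ratios turned above 1 for Egln3 (2.02), Slc2a1 (10.1) and P4ha1 (1.01) in the fibroblast or tumour marker class and for Ankrd37 (1.39) in classical monocytes. With only members of at least 20 thinned UMIs, a minimum chosen after seeing those values, the fibroblast or tumour marker class kept 2 hypoxia targets at a median of -0.20, Ankrd37 was again at 1.39, and the nonclassical monocyte glycolysis median was 0.17. In Leiden clusters, which held 43.6% of the gated dendritic cells, the dendritic glycolysis median was 0.20. The earlier gate lists gave a dendritic hypoxia median of -0.19 in place of -0.33. The cause of these shifts was not tested. Of the comparisons of single named ratios, 500 stayed within the counting interval, 49 moved outside it and 5 reversed. No paired analysis was possible because each group is 1 library. Low summed counts of members limit the dendritic cells, B cells and neutrophils most, where 9, 7 and 6 hypoxia targets had under 50 UMIs.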
